A study of Mus musculus with 6 samples.

Results

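Ion channel genes were described in endothelial cells (EC) that had been sorted from the lungs of infant and young adult mice. Members were all genes whose symbol begins with Kcn (potassium channels), Cacn (voltage-gated calcium channels), Scn and a digit (voltage-gated sodium channels), Clcn (chloride channels and exchangers) or Trpc, Trpv or Trpm and a digit (transient receptor potential, TRP, channels). The pattern uses symbols alone and found 39 of 12623 genes. Of these 39 genes, 36 encode channel or exchanger subunits and 3 do not. The latter were Kcnq1ot1, a long non-coding RNA, Kcnrg, a soluble regulator of potassium channels, and Trpc4ap, a protein that binds a TRP channel. Where a gene had several transcript rows, which held for 14 of the members, the row with the highest mean over all libraries was used.

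The comparison asked which transcripts change while lung EC turn from growth to rest. RNA-seq was available from 3 libraries of infant and 3 of young adult mice, described as independent biological replicates. All mice were of the strain C57BL/6N and were labelled by age group only, with no treatment or genetic change. The study sorted living cells positive for CD31 and CD34 and negative for the antigens PTPRC, LYVE1, LY76 and PDPN, and how many animals went into a library was not given in the sources used here. Levels were RPKM values (reads per kilobase of transcript, scaled to the mapped reads of the library), which are relative to all reads of a library. The read depth of each library is unknown.

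Ion channels let selected ions cross membranes. EC are not excitable in the way that neurons or muscle cells are, and potassium channels mainly set their resting potential, which in turn drives the entry of calcium through TRP and store-operated channels. Calcium entry feeds the release of nitric oxide, the opening of junctions and the response to flow. Voltage-gated calcium channels and several of the potassium channels listed here are best known from the smooth muscle cells and pericytes of the vessel wall, while most Clcn members of this set are exchangers of endosomes and lysosomes.

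Some facts about the libraries bear on all values. The 10 endothelial markers examined summed to between 2947 and 4345 RPKM in infant and between 4764 and 5120 RPKM in young adult libraries, and none was at 0. Infant replicate 2 stood apart. Its log2(RPKM + 1) values over all genes correlated at 0.963 and 0.964 with the other infant libraries and at 0.950 to 0.963 with the young adult libraries, whereas infant replicates 1 and 3 correlated at 0.987. Globin genes took 3.41% to 23.5% of the RPKM of infant and at most 0.487% of young adult libraries. In bulk samples like these, fewer cells of a type and less RNA per cell cannot be told apart.

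Of the 39 members 14 fell, 1 rose and 24 were not called by limma with a Benjamini-Hochberg adjusted p under 0.05 and a change of over 0.81 on the log2(RPKM + 1) scale, the fold threshold of the study. Over all 12458 genes tested, 8.1% were called lower and 3.33% higher, and 11.4% in either direction. Members called lower made up 35.9% and members called higher 2.6%. Of the 14 members called lower, 9 reached 1 RPKM in infant libraries only, so that they passed the filter on low values through the group in which they are high. Of the 23 members that reached 1 RPKM in both groups, 5 were called lower (21.7%) and 1 higher, beside 4.96% and 3.46% of all 11069 genes that did so. The median log2 fold change of these 23 members was -0.02. Regardless of fold, 16 members were lower and 1 was higher at an adjusted p under 0.05, against 16.2% and 9.26% of all genes. All young adult libraries lay below all infant libraries in 20 members and above them in 2, against 27.1% and 16.4% of all genes.

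The median log2 fold change of the members (young adult against infant) was -0.36, or -0.33 without the 2 genes listed at 0 in all young adult libraries, beside -0.07 for all genes tested. This distance depended on scaling. Quantile normalization moved the median of all genes by 0.12, to 0.04, and that of the members to -0.03. Relative to all genes the members then stood at -0.07 instead of -0.29. It left 8 of 39 members called lower instead of 14, and 611 of all 12458 genes instead of 1009. The other 3 scalings kept the relative median between -0.27 and -0.32.

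How many members were called lower also depended on the library left out. It stayed at 14 when infant replicate 2 was left out, but was 9 when either infant replicate 1 or infant replicate 3 was. Omitting young adult replicates 1, 2 and 3 in turn gave 8, 7 and 10. The number called lower among all genes also moved, from 1009 with all libraries to 1308 without infant replicate 2. It was 615 without infant replicate 1 and 615 without infant replicate 3. Without young adult replicates 1, 2 and 3 in turn it was 514, 551 and 843. The calls of members that held in each of these 6 fits were 6 falls and the rise of Trpv4. The falls were those of Scn7a, Scn3b, Kcnk3, Trpc6, Cacna2d1 and Cacna1c. Among these, Kcnk3, Trpc6, Cacna2d1 and Cacna1c reached 1 RPKM in infant libraries only. They thus passed the filter through the group in which they are high.

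**Figure D1:**
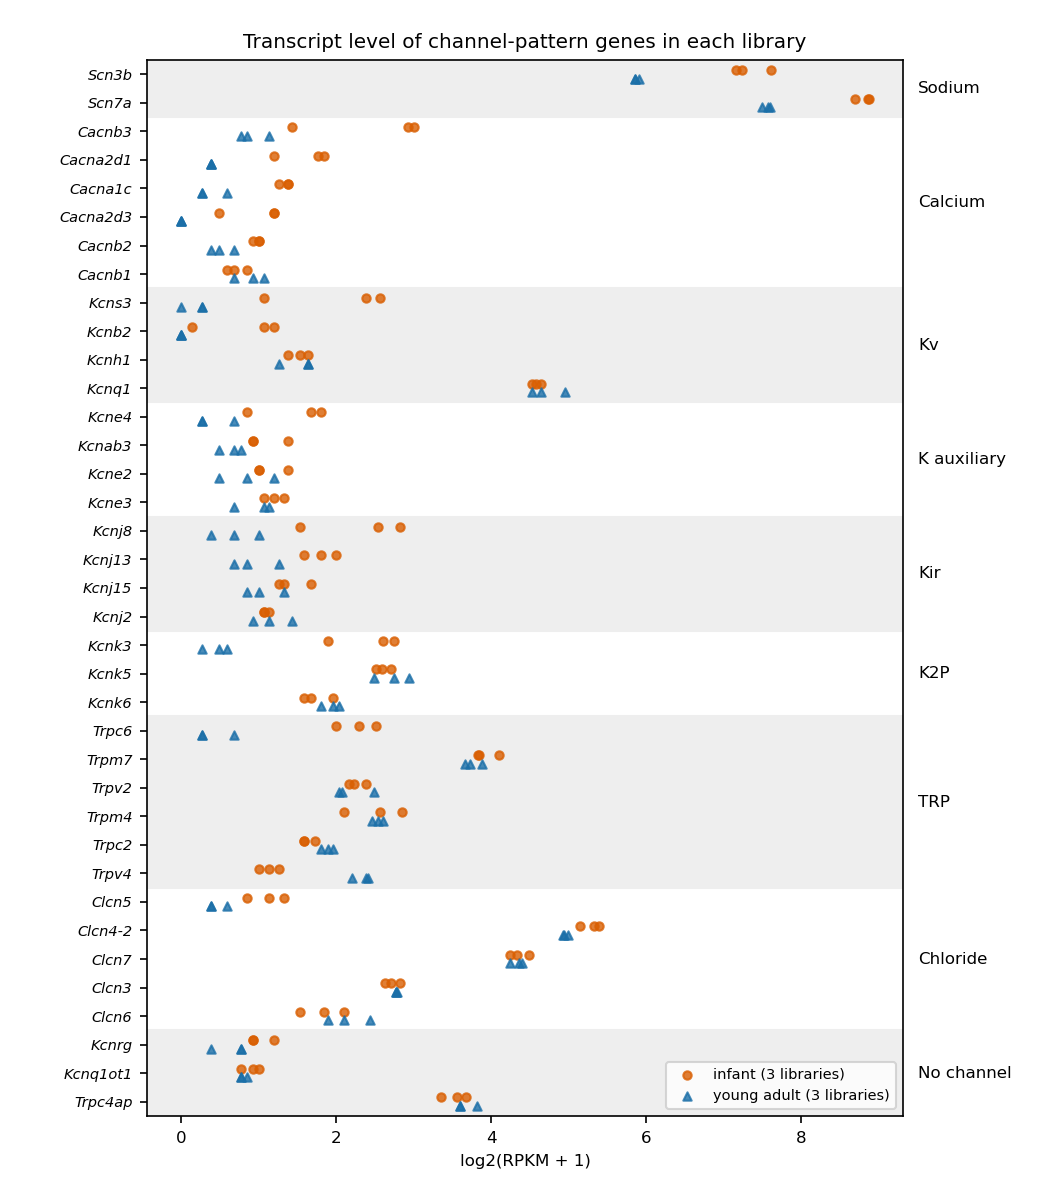
Level of 37 members in each library, as log2(RPKM + 1) on the horizontal axis, with members in rows grouped by channel family. Circles are the 3 infant and triangles the 3 young adult libraries. Scn7a and Scn3b lie to the right of all other members, and in 18 of the members shown all triangles lie to the left of all circles.

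Most channel genes had low levels. Of the members 9 had a mean of at least 5 RPKM over the 6 libraries, 19 had a mean of 1 to 5 RPKM and 11 had a mean under 1 RPKM. An RPKM of 1 was reached by 36, 30 and 35 members in infant replicates 1 to 3 and by 18, 20 and 21 members in young adult replicates 1 to 3. All 39 members passed the filter of 1 RPKM in at least 1 library, but 15 (38.5%) passed it through infant libraries only, against 9.38% of all genes. A gene of this kind is low in young adult EC by the filter itself. Values near 0 also carry the rounding step of 0.1 RPKM. The table held few transcripts that stayed under 1 RPKM in all libraries, so channel genes below that level are mostly not described here.

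By level, 2 of the 9 members with a mean of at least 5 RPKM were called lower, against 5.0% of all genes of that level. In the class of 1 to 5 RPKM 8 of 19 members were called lower, against 11.5% of all genes, and in the class under 1 RPKM 4 of 11, against 14.2%. A sum over all members gave 809.8, 827.0 and 736.2 RPKM across infant replicates 1 to 3, against 392.9, 382.2 and 399.0 RPKM across young adult replicates 1 to 3. Scn7a and Scn3b alone made up 77.3% of this sum in infant and 62.8% in young adult libraries. The other 37 members summed to 167.0 to 192.0 RPKM in infant and to 140.0 to 152.3 RPKM in young adult libraries.

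Sodium channel genes were the most abundant members and both fell. Scn7a (chromosome 2, 66673426 to 66784910, GRCm38, the assembly called mm10) encodes an atypical alpha subunit that responds to the extracellular sodium level rather than to voltage. It measured 468.2, 466.0 and 414.8 RPKM across infant replicates 1 to 3, against 193.8, 180.3 and 189.5 RPKM across young adult replicates 1 to 3. The groups lay far apart and infant replicate 2 was level with the other infant libraries. The mean fell from 449.7 ± 30.2 to 187.9 ± 6.90 RPKM (SD, n = 3 each), which is 0.418 of the infant level and a log2 fold change of -1.25 ± 0.13 (SE, limma adjusted p 0.00132). Among all 12623 genes Scn7a ranked 49 by mean RPKM in infant and 204 in young adult EC.

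Scn3b (chromosome 9, 40269216 to 40291618) encodes a sodium channel beta subunit with an immunoglobulin-like domain, which modulates alpha subunits and takes part in cell adhesion. Its levels were 149.6, 194.0 and 142.0 RPKM across infant replicates 1 to 3, against 59.1, 57.2 and 57.2 RPKM across young adult replicates 1 to 3. Here infant replicate 2 was the highest of the infant libraries. It fell with a log2 fold change of -1.46 ± 0.14 (limma adjusted p 0.00109), a ratio of 0.357, and its rank changed from 210 to 902. RPKM of Scn7a exceeded that of Scn3b by a factor of 2.40 to 3.13 in infant and of 3.15 to 3.31 in young adult libraries. No other symbol of Scn and a digit had a row in the deposited values, so further genes of voltage-gated sodium channels could not be described.

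The promoter of Scn7a is shown because this gene had the highest level of the set and fell in each fit without 1 library. The window runs from 250 bases before to 50 bases after the start in RefSeq (GRCm38.p6, chr2:66784861-66785160, minus strand, written 5' to 3' along the gene), and capitals mark the matches to 2 motifs.

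Scn7a promoter: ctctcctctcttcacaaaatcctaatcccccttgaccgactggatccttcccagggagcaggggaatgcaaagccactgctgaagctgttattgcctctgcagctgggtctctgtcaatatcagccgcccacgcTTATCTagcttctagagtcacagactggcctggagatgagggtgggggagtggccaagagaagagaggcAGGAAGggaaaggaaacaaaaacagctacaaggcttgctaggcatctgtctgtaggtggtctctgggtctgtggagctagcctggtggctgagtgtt

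Its G and C content was 54%, with 3 CpG sites, beside a median of 52.7% for all 32851 promoters of that table. The motif AGGAAG, the core bound by ETS factors, begins at position -47 from the start on the strand of the gene. AGATAA, the core bound by GATA factors, lies on the opposite strand, written TTATCT here, and begins at position -116. The 2 matches do not overlap. Both strands were searched in the promoters of all 27025 genes with an entry, of which 38.4% held AGGAAG and 12.7% held AGATAA. Of the 30 members with an entry, 10 (33.3%) held the former and 2 (6.67%) the latter. CCACACCC (KLF factors), ACAAAG (SOX factors) and TATAAA (the core of the TATA box) were found in 0, 5 and 4 members, against 4.09%, 21% and 15.7% of all genes.

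**Figure D2:**
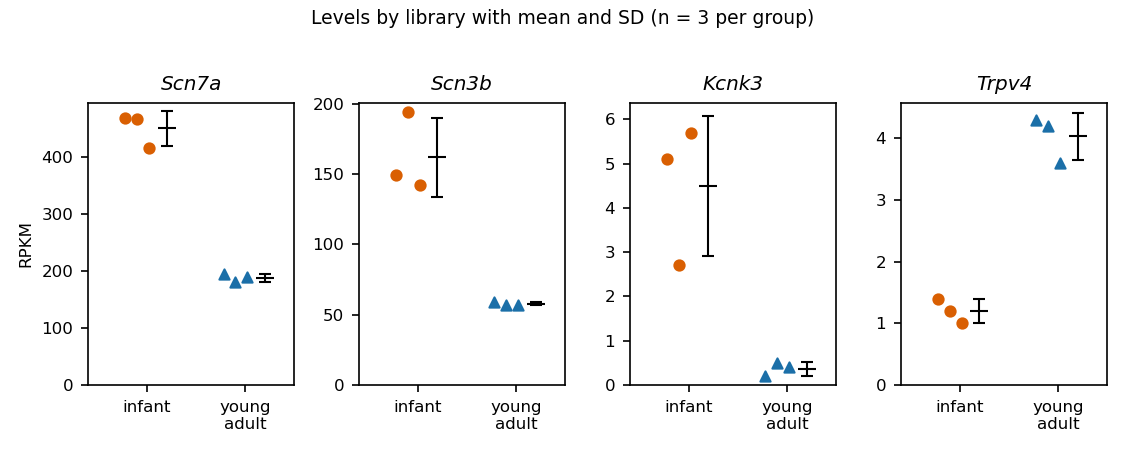
RPKM of Scn7a, Scn3b, Kcnk3 and Trpv4 in each library on linear axes that start at 0, with circles for infant and triangles for young adult libraries and the mean with SD (n = 3 per group) beside them. The groups do not overlap in any of the panels, and Trpv4 alone is higher in young adult libraries, at 3.6 to 4.3 RPKM against 1.0 to 1.4 RPKM.

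Voltage-gated calcium channels consist of a pore subunit and of beta and alpha2delta subunits that bring it to the membrane and tune it. Of the 6 members of this family 4 fell and 2 were not called, with a median log2 fold change of -0.97 that was -0.58 under quantile normalization. Cacna1c (chromosome 6, 118587240 to 119197384), the pore subunit of the L-type channel of heart and arterial muscle, measured 1.6, 1.4 and 1.6 RPKM across infant replicates 1 to 3, against 0.2, 0.2 and 0.5 RPKM across young adult replicates 1 to 3. The groups did not overlap and infant replicate 2 was close to the others. Its log2 fold change was -0.97 ± 0.15 (limma adjusted p 0.00524), but under quantile normalization it was -0.58 and below the fold threshold.

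Cacna2d1 (chromosome 5, 15934264 to 16374511), an alpha2delta subunit, measured 2.6, 1.3 and 2.4 RPKM in infant libraries and 0.3 RPKM in each young adult library. This fall of -1.23 ± 0.19 on the log2 scale (limma adjusted p 0.00529) held in every fit without 1 library. Cacna2d1 passed the filter on low values through infant libraries only. Cacnb3 (chromosome 15, 98628436 to 98644536), a beta subunit, measured 7.0, 1.7 and 6.6 RPKM across infant replicates 1 to 3, against 0.8, 1.2 and 0.7 RPKM across young adult replicates 1 to 3. Infant replicate 2 lay closer to the young adult than to the other infant libraries. The log2 fold change of -1.54 ± 0.39 (limma adjusted p 0.0267) kept its call only in the fit without infant replicate 2, and without any of the other 5 libraries the adjusted p was 0.0769 to 0.0913.

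Cacna2d3, another alpha2delta subunit, was listed at 0 in all young adult libraries and at 1.3, 0.4 and 1.3 RPKM in infant replicates 1 to 3. It was called lower (limma adjusted p 0.0194), and the call was kept only without infant replicate 2, with adjusted p of 0.0554 to 0.0797 in the other fits without 1 library. Under quantile normalization its log2 fold change was -0.57, under the fold threshold, with an adjusted p of 0.0809. Among the remaining beta subunits, Cacnb2 had a log2 fold change of -0.46 ± 0.14 at a limma adjusted p of 0.0509, and Cacnb1 of 0.19 ± 0.16 at 0.417. Cacnb1 was the only member that reached 1 RPKM in a young adult library (1.1 RPKM in replicate 2) and in no infant library.

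Of 16 potassium channel subunit genes 6 fell, none rose and 10 were not called, with a median log2 fold change of -0.40 or, without the gene at 0 in young adult EC, of -0.36. Under quantile normalization the median of the 16 genes was -0.03. They span channels opened by voltage, inward rectifiers, leak channels and auxiliary subunits. Kcnk3 (chromosome 5, 30588170 to 30625270) is a two-pore-domain leak channel inhibited by acid that helps to set the resting potential of pulmonary artery muscle. It had the largest fitted fall of all members on the log2(RPKM + 1) scale, but not the largest ratio of mean RPKM. It measured 5.1, 2.7 and 5.7 RPKM across infant replicates 1 to 3, against 0.2, 0.5 and 0.4 RPKM across young adult replicates 1 to 3. All infant libraries lay above all young adult libraries, with infant replicate 2 the lowest of the 3. Its log2 fold change of -1.97 ± 0.23 (limma adjusted p 0.00209) goes with a mean 12.3 times as high in infant EC.

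The other 2 leak channel genes were not called. Kcnk5 (chromosome 14, 20140057 to 20181782), which is opened by alkaline pH, measured 4.7, 5.0 and 5.5 RPKM across infant replicates 1 to 3, against 6.7, 4.6 and 5.7 RPKM across young adult replicates 1 to 3. Kcnk6 (chromosome 7, 29221928 to 29232522), a weak inward rectifier of this class, measured 2.2, 2.9 and 2.0 RPKM and 3.1, 2.5 and 2.9 RPKM. Both overlapped between the groups. The 95% intervals of their log2 fold changes ran from -0.19 to 0.44 and from -0.12 to 0.51, and the limma adjusted p were 0.519 and 0.323.

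Inward rectifiers pass potassium most easily near the resting potential. Kcnj8 (chromosome 6, 142564837 to 142571614), the pore subunit of the ATP-sensitive channel of vessels and a marker of pericytes, measured 6.1, 1.9 and 4.8 RPKM across infant replicates 1 to 3, against 0.3, 0.6 and 1.0 RPKM across young adult replicates 1 to 3. Infant replicate 2 was the lowest infant library but above all young adult libraries. Kcnj8 was called lower (-1.61 ± 0.33, limma adjusted p 0.0133), but not when young adult replicate 1 or 2 was left out (adjusted p 0.0579 and 0.0585).

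Kcnj13 (chromosome 1, 87384577 to 87394729), a rectifier known from epithelia, measured 2.5, 3.0 and 2.0 RPKM across infant replicates 1 to 3, against 0.6, 0.8 and 1.4 RPKM across young adult libraries, again without overlap. It fell by 0.87 on the log2 scale (SE 0.19, limma adjusted p 0.0161). Of its exon bases 49.1% are shared with Gigyf2 on the opposite strand, and since the library kit does not mark strand, reads of the 2 genes could not be told apart there. The call was lost without infant replicate 1 (adjusted p 0.0581), young adult replicate 1 (0.0603) and young adult replicate 2 (0.0683), and without infant replicate 2 the log2 fold change of -0.77 was under the fold threshold. It was -0.56 under quantile normalization, with an adjusted p of 0.0602.

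Kcnj2 (chromosome 11, 111066164 to 111076825) encodes a strong inward rectifier known from capillary EC among other cells. It measured 1.2, 1.1 and 1.1 RPKM across infant replicates 1 to 3, against 1.7, 0.9 and 1.2 RPKM across young adult replicates 1 to 3. The groups overlapped. Its log2 fold change had a 95% interval from -0.29 to 0.44 (limma adjusted p 0.763), and the estimate changed sign, to -0.06, without young adult replicate 1. Kcnj15, the remaining rectifier, had a log2 fold change of -0.36 ± 0.18 (limma adjusted p 0.164).

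Voltage-gated potassium channels repolarise cells, and silent subunits modify others without forming a channel alone. Kcns3 (chromosome 12, 11090202 to 11151168), such a silent subunit that is known from pulmonary artery muscle, measured 4.9, 1.1 and 4.2 RPKM across infant replicates 1 to 3, against 0.2, 0.2 and 0.0 RPKM across young adult replicates 1 to 3. Infant replicate 2 stood between the groups. The log2 fold change was -1.83 ± 0.36 (limma adjusted p 0.0126), and the call was lost without young adult replicate 2 (adjusted p 0.0521). Its mean RPKM was 25.5 times as high in infant EC, a larger ratio than that of Kcnk3, but over young adult values near 0.

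Kcnb2, a voltage-gated channel subunit, was at 1.3, 0.1 and 1.1 RPKM in infant libraries and listed at 0 in all young adult libraries, and was not called (adjusted p 0.071). Without infant replicate 2 it was called lower (adjusted p 0.000388).

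Kcnq1 (chromosome 7, 143106877 to 143427050), a slowly opening channel that auxiliary Kcne subunits convert to different gating, was the most abundant potassium channel gene in both groups. It measured 22.1, 23.9 and 22.8 RPKM across infant replicates 1 to 3, against 22.1, 23.9 and 29.9 RPKM across young adult replicates 1 to 3. The groups overlapped, and the log2 fold change of 0.13 had a 95% interval from -0.16 to 0.41 (limma adjusted p 0.482). Kcnh1 was at 1.87 RPKM in both groups, with a log2 fold change of -0.01 that changed sign under 3 scalings, to 0.26 under quantile normalization, 0.04 under median-of-ratios scaling and 0.01 under upper quartile scaling, and without infant replicate 1, infant replicate 3 or young adult replicate 3 (0.05, 0.00 and 0.12).

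Among the 4 auxiliary subunit genes 1 fell and 3 were not called. Kcne4 (chromosome 1, 78816911 to 78820032), an inhibitory partner of Kcnq1, measured 2.2, 0.8 and 2.5 RPKM across infant replicates 1 to 3, against 0.2, 0.6 and 0.2 RPKM across young adult replicates 1 to 3. Only 0.2 RPKM lay between infant replicate 2 and young adult replicate 2. Its log2 fold change of -1.04 ± 0.27 (limma adjusted p 0.0277) was called in 1 of the 6 fits that each omitted a library, that without infant replicate 2, and otherwise had adjusted p of 0.0628 to 0.10. It was -0.63 under quantile normalization (adjusted p 0.103). Kcne3 (chromosome 7, 100176507 to 100184869), which holds Kcnq1 open, measured 1.3, 1.5 and 1.1 RPKM and 1.1, 1.2 and 0.6 RPKM, with a log2 fold change of -0.24 ± 0.16 (limma adjusted p 0.317) that was 0.10 under quantile normalization. Kcne2 (-0.28, but 0.10 under quantile normalization) and Kcnab3 (-0.43) had adjusted p of 0.356 and 0.105.

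**Figure D3:**
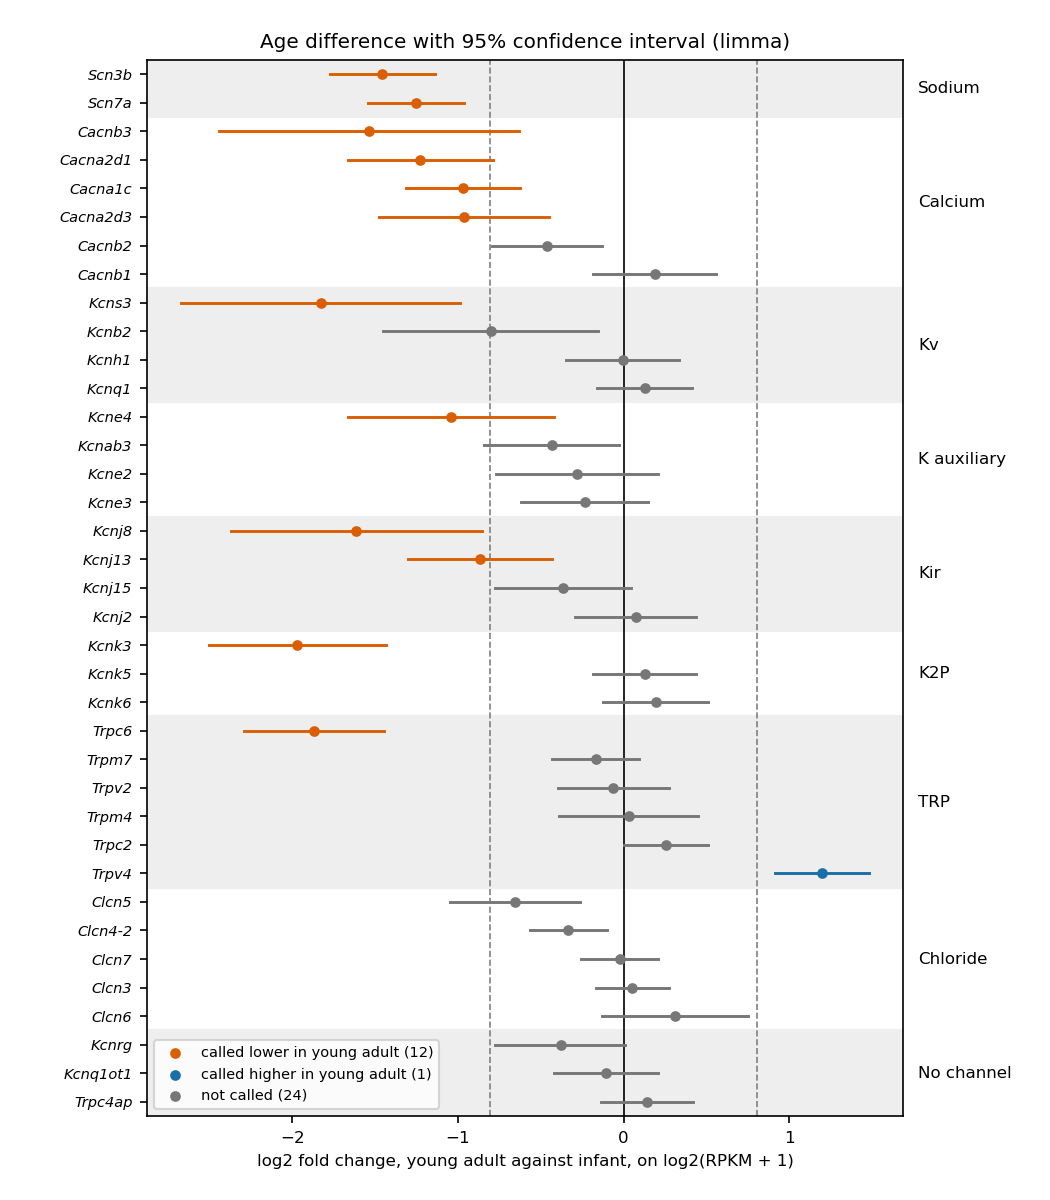
Log2 fold change of 37 members (young adult against infant) on the log2(RPKM + 1) scale with its 95% confidence interval from limma, grouped by channel family. Dashed lines mark the fold threshold of 0.81, and colours mark 12 members called lower, 1 called higher and 24 not called. Both sodium and 4 of 6 calcium channel genes lie left of the threshold, whereas all chloride members lie between the lines.

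TRP channels are cation channels, most of them permeable to calcium, that open on lipids, heat, osmotic swelling or stretch. Of the 7 TRP genes 2 fell, 1 rose and 4 were not called, with a median log2 fold change of -0.06 that was 0.12 under quantile normalization. Trpc6 (chromosome 9, 8543867 to 8680752), a channel opened by diacylglycerol that takes part in hypoxic constriction of lung vessels and in the permeability of lung endothelium, measured 3.0, 3.9 and 4.7 RPKM across infant replicates 1 to 3, against 0.2, 0.6 and 0.2 RPKM across young adult replicates 1 to 3. Infant replicate 2 lay in the middle of the infant libraries. Its mean was 11.6 times as high in infant EC, a log2 fold change of -1.87 ± 0.18 (limma adjusted p 0.00126).

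Trpv4 (chromosome 5, 114622152 to 114658435), a calcium channel opened by warmth, osmotic swelling and mechanical load that regulates the permeability of lung capillaries, was the only member that rose. It measured 1.4, 1.2 and 1.0 RPKM across infant replicates 1 to 3, against 4.3, 4.2 and 3.6 RPKM across young adult replicates 1 to 3. Each young adult library was above each infant library by at least 2.2 RPKM. The mean rose from 1.20 ± 0.20 to 4.03 ± 0.38 RPKM (SD, n = 3 each), which is 3.36 times the infant level and a log2 fold change of 1.20 ± 0.12 (SE, limma adjusted p 0.0014). All 6 fits without 1 library called it, and so did every other setting except a pseudocount of 5, where its log2 fold change was 0.54.

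The promoters of Trpc6 and Trpv4 are shown side by side because these TRP genes had the largest changes in opposite directions. They were taken from RefSeq (GRCm38.p6) as chr9:8543892-8544191 on the plus strand and chr5:114658372-114658671 on the minus strand. Each again has 250 bases before and 50 bases after the start of its promoter entry. Both starts lie inside the gene spans given above, and the Trpc6 window lies wholly within the span of its gene. Capitals mark the only match found to a motif of the searched set.

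Trpc6 promoter: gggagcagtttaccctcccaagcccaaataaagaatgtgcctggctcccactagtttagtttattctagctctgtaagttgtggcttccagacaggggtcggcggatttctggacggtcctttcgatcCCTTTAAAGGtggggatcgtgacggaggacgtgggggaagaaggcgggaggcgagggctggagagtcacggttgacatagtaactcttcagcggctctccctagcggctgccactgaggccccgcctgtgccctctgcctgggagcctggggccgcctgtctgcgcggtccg

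Trpv4 promoter: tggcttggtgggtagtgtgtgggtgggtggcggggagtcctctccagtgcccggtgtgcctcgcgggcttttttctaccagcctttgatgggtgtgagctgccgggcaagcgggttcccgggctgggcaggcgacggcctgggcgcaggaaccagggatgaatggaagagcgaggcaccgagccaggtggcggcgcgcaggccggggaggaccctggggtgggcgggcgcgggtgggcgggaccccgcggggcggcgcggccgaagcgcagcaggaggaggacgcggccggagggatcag

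In Trpc6 the capitals are a CArG box, the motif of serum response factor (SRF). It begins at position -122 from the start of that entry and reads as a CArG box on both strands. This motif was found in 1.81% of all genes with a promoter entry and in 1 of the 30 members, Trpc6 itself. The Trpv4 window held none of the 6 motifs searched. It had a G and C content of 73% and 30 CpG sites, against 60% and 17 CpG sites in Trpc6 and 54% and 3 CpG sites in Scn7a.

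Trpm7, Trpm4 and Trpv2 overlapped between the groups and were not called. Trpm7 (chromosome 2, 126791558 to 126876261), a magnesium-permeable channel fused to a kinase, was the most abundant TRP gene, at 16.2, 13.3 and 13.2 RPKM across infant replicates 1 to 3, against 13.7, 12.2 and 11.7 RPKM across young adult replicates 1 to 3. Its log2 fold change was -0.17 ± 0.11 (limma adjusted p 0.302). Trpm4 (chromosome 7, 45303155 to 45334071), which is opened by calcium and passes sodium, measured 4.9, 6.2 and 3.3 RPKM and 4.5, 4.8 and 5.1 RPKM. Trpv2 (chromosome 11, 62574486 to 62600305), a relative of Trpv4, measured 3.5, 4.2 and 3.7 RPKM and 3.2, 3.1 and 4.6 RPKM.

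The intervals of Trpm4 and Trpv2 ran from -0.39 to 0.45 and from -0.40 to 0.27 on the log2 scale, and the sign of each changed in some of the settings. The row used for Trpc2, a channel of pheromone-sensing neurons, belongs in RefSeq to a read-through transcript named Xntrpc and shares 42.3% of its exon bases with Xndc1, so its 2.0 to 2.9 RPKM cannot be assigned to the channel. A second row of Trpc2 measured 0.6 to 1.2 RPKM.

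None of the 5 Clcn genes was called, and the family had a median log2 fold change of -0.02 that was 0.04 under median-of-ratios scaling. Clcn4-2 (chromosome 7, 7282309 to 7300916), an endosomal exchanger of chloride against protons, measured 41.1, 34.3 and 39.0 RPKM across infant replicates 1 to 3, against 29.5, 30.8 and 29.6 RPKM across young adult replicates 1 to 3. The groups did not overlap, and the difference of -0.33 ± 0.10 (limma adjusted p 0.044) was under the fold threshold. Of its exon bases 11.5% overlap an antisense transcript, Gm45631. Clcn7 (chromosome 17, 25133378 to 25162103), the lysosomal exchanger, measured 19.2, 21.5 and 18.0 RPKM and 18.0, 19.5 and 20.1 RPKM, with a 95% interval of the log2 fold change from -0.26 to 0.21.

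Clcn3 (chromosome 8, 60910389 to 60983317), a further endosomal exchanger, measured 5.2 to 6.1 RPKM in infant and 5.8 to 5.9 RPKM in young adult libraries, with an interval from -0.17 to 0.27. Clcn5, the endosomal exchanger known from the kidney, measured 1.5, 0.8 and 1.2 RPKM across infant replicates 1 to 3, against 0.3, 0.3 and 0.5 RPKM across young adult replicates 1 to 3. It had an adjusted p of 0.028 but was under the fold threshold at -0.66 ± 0.17, and over it, at -0.88, when the values of its 2 transcript rows were added. It was also called at a pseudocount of 0.1 (-1.43, adjusted p 0.0234), and its mean RPKM was 3.18 times as high in infant EC. Clcn6 had a log2 fold change of 0.31 ± 0.19 (limma adjusted p 0.254). Among the 3 genes that encode no channel subunit, Trpc4ap (chromosome 2, 155634277 to 155692384) measured 9.2 to 11.8 RPKM in infant and 11.1 to 13.1 RPKM in young adult libraries, and Kcnrg and Kcnq1ot1 stayed at or under 1.3 RPKM. Their limma adjusted p were 0.409, 0.133 and 0.600.

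The 14 members called lower differed in infant replicate 2. In 6 of them its RPKM was under 0.5 of the mean of infant replicates 1 and 3, in 3 it was 0.5 to 0.8 of that mean, and in 5 it was 0.8 or more. These boundaries were chosen after the values were seen, and no test was made. Low ratios were those of Kcns3 (0.242), Cacnb3 (0.25), Cacna2d3 (0.308), Kcne4 (0.340) and Kcnj8 (0.349). Kcnk3 (0.5) and Cacna2d1 (0.52) stood between. Cacna1c (0.875), Trpc6 (1.01), Scn7a (1.06), Scn3b (1.33) and Kcnj13 (1.33) were about as high in infant replicate 2 as in the others, or higher.

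The median ratio of the 14 members was 0.51, and that of all 1009 genes called lower was 0.511. Of all genes called lower, 47.7% had a ratio under 0.5 and 25% a ratio of 0.8 or more. Scn7a and Scn3b, with the highest levels, and Trpc6 were among the members in which infant replicate 2 was at least as high as the mean of the other infant libraries.

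Marker genes of some other cell types were also low in infant replicate 2. Mural markers (10 genes of smooth muscle and pericytes) summed to 233.1, 69.2 and 234.4 RPKM across infant replicates 1 to 3, against 11.9, 14.6 and 15.6 RPKM across young adult replicates 1 to 3, a ratio of infant replicate 2 to the others of 0.296, and 9 of 10 were called lower. Fibroblast markers summed to 1320.3, 373.0 and 966.0 RPKM and to 12.9, 27.3 and 24.1 RPKM, a ratio of 0.326, and 9 of 10 were called lower. Collagens weigh most in this sum. The median ratio of single genes was 0.493 for fibroblast and 0.499 for mural markers, and the fibroblast markers Dcn (7.6, 19.9 and 8.0 RPKM) and Lum (4.1, 14.4 and 4.7 RPKM across infant replicates 1 to 3) were highest in infant replicate 2. Pdgfrb, Acta2 and Tagln weigh most in the mural sum. All mural markers except Notch3 (1.1, 1.2 and 1.6 RPKM) were lowest in infant replicate 2 among the infant libraries. For Lmod1 (1.1, 1.0 and 1.2 RPKM) the infant libraries were close together. The summed ratio was also low for erythroid (0.175) and neural or glial markers (0.512). It was 0.951 for cardiomyocyte markers and above 1 for leukocyte (1.34), epithelial (1.52), mesothelial (1.79) and platelet markers (2.28), although the median ratio of single leukocyte genes was 0.548. Endothelial markers had a ratio of 1.41, with 1 of 10 called higher and none called lower.

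The mural marker Pdgfrb measured 69.4, 17.4 and 57.1 RPKM in infant and 1.2 to 2.2 RPKM in young adult libraries, and no mural or fibroblast marker was at 0 in all young adult libraries. The part of mural cells and fibroblasts in the falls of the 14 members was not tested. Among the other lists, 4 of 9 epithelial, 4 of 10 leukocyte, 4 of 7 cardiomyocyte, 1 of 4 neural or glial, 7 of 7 erythroid, 2 of 2 mesothelial and 0 of 4 platelet markers were called lower. Summed cardiomyocyte markers were 61.8, 82.5 and 111.7 RPKM across infant replicates 1 to 3, against 25.6, 48.8 and 21.5 RPKM across young adult replicates 1 to 3. Summed epithelial markers were 6481 to 11325 RPKM and 1806 to 8333 RPKM, and summed leukocyte markers 318.2 to 514.9 RPKM and 139.4 to 549.2 RPKM. Their part in the falls of the members was not tested either.

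**Figure D4:**
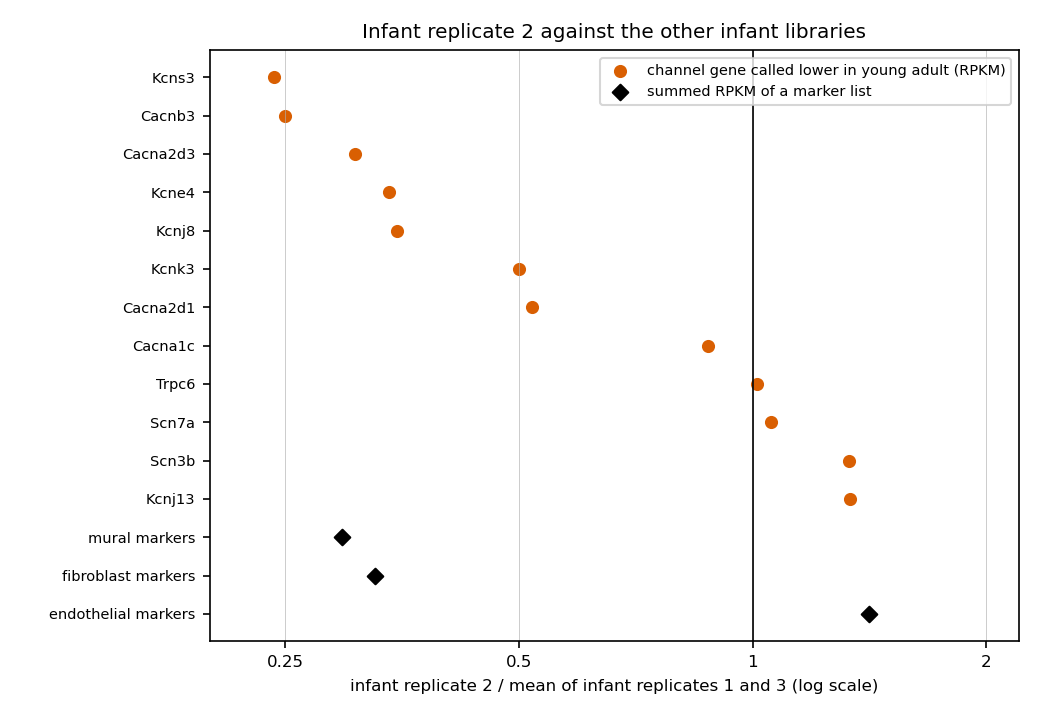
RPKM of infant replicate 2 divided by the mean of infant replicates 1 and 3, on a logarithmic axis, for 12 of the members called lower in young adult EC (circles) and for the summed RPKM of mural, fibroblast and endothelial marker lists (diamonds). Values run from 0.242 for Kcns3 to 1.33 for Kcnj13, and the mural and fibroblast sums lie at 0.296 and 0.326. The median ratios of single mural and fibroblast markers, which are not drawn, were 0.499 and 0.493.

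Genes that work with these channels were taken from a list of pumps, carriers, calcium store genes, anion channels and mechanically gated channels. Of the 64 symbols listed, 48 had a row and 47 were tested. Of these, 5 were called lower (10.6%) and 1 higher (2.1%), beside 8.1% and 3.33% of all genes, and the median log2 fold change was 0.05. Regardless of fold, 17 of the 47 genes had an adjusted p under 0.05 (limma), 8 higher and 9 lower, against 9.26% and 16.2% of all genes.

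Abcc9, the sulfonylurea receptor that forms the ATP-sensitive channel together with the pore subunit Kcnj8, measured 4.8, 1.5 and 4.1 RPKM across infant replicates 1 to 3, against 0.2, 0.4 and 0.2 RPKM across young adult replicates 1 to 3. It fell by 1.73 on the log2 scale (SE 0.30, limma adjusted p 0.00799) and its ratio of infant replicate 2 to the mean of the others was 0.337, beside 0.349 for Kcnj8. Slc12a2, a carrier of sodium, potassium and chloride into the cell, measured 12.9, 16.9 and 14.1 RPKM across infant replicates 1 to 3, against 5.5, 4.3 and 6.4 RPKM across young adult libraries. Its log2 fold change was -1.29 ± 0.15 (limma adjusted p 0.00209), and infant replicate 2 was the highest infant library. Both were called in each fit without 1 library.

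Other calls of the list held less well. The proton channel Hvcn1 (-1.32, limma adjusted p 0.0171) and the calcium-activated chloride channel Ano1 (-0.82, 0.0161) were called in 2 of the 6 fits that each omitted a library, and otherwise had adjusted p of 0.0552 to 0.0659 and 0.0524 to 0.0667. The calls were lost for Hvcn1 without infant replicate 1 or 3 and young adult replicate 1 or 2, and for Ano1 without infant replicate 1 or 3 and young adult replicate 1 or 3. The sodium pump subunit Atp1b1 (-0.89, 0.0228) lost it in all fits except that without young adult replicate 3. Under quantile normalization neither Ano1 (-0.39) nor Atp1b1 (-0.56) was called, nor was Ano1 under median-of-ratios scaling (-0.79). Atp2a3, a calcium pump of the endoplasmic reticulum, was the 1 gene called higher, with 39.8, 67.7 and 33.3 RPKM across infant replicates 1 to 3, against 88.1, 94.3 and 76.6 RPKM across young adult replicates 1 to 3. The log2 fold change of 0.93 ± 0.24 (limma adjusted p 0.0294) kept its call only without infant replicate 2, with adjusted p of 0.0588 to 0.108 in the other fits.

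Genes of store-operated calcium entry, in which Stim proteins sense the store and open Orai channels, were not called. Stim2 (0.50, limma adjusted p 0.0281), Orai1 (0.46, 0.0418) and the store release channel Itpr2 (0.50, 0.0141) were higher and Orai2 (-0.69, 0.0341) was lower in young adult EC, all under the fold threshold. Of the stretch-gated channels, Piezo1 had a log2 fold change of 0.04 (limma adjusted p 0.815) at 5.9 to 7.5 RPKM over all libraries. Piezo2 measured 24.6, 28.4 and 23.5 RPKM across infant replicates 1 to 3, against 15.6, 13.0 and 19.2 RPKM across young adult replicates 1 to 3, a difference of -0.66 (limma adjusted p 0.0183) under the fold threshold. The volume-regulated anion channel subunit Lrrc8a (0.80, 0.0126) and the ATP-gated channel P2rx4 (0.79, 0.0171) lay just under the threshold in the upward direction. The downward threshold was approached as closely by a gene not named here.

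**Figure D5:**
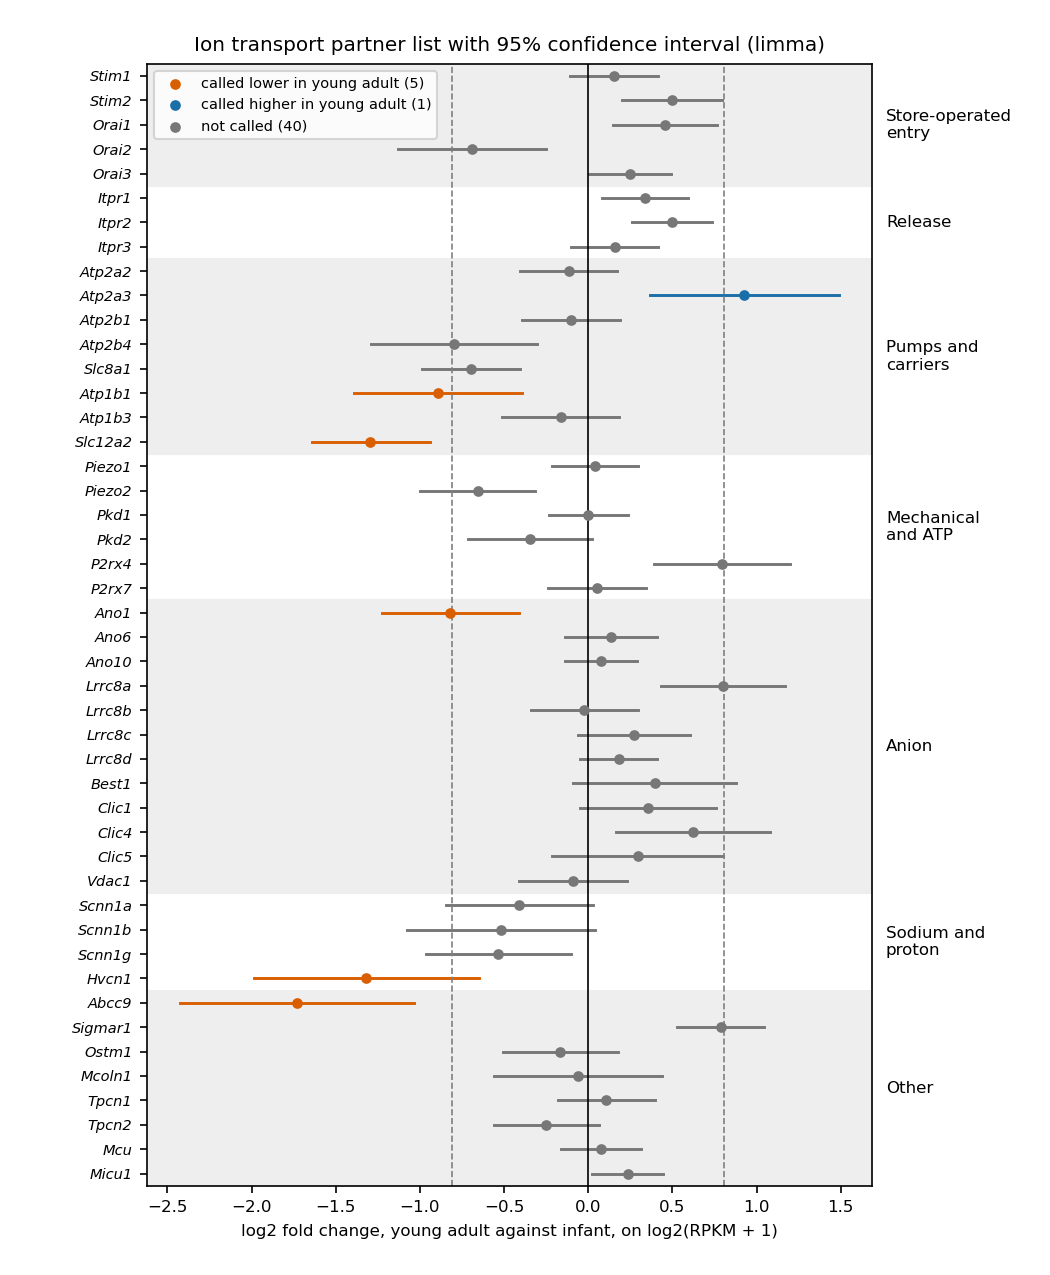
Log2 fold change (young adult against infant) with 95% confidence interval from limma for 46 of the tested genes of the list of channel partners, pumps and carriers, grouped by function. Dashed lines mark the fold threshold of 0.81. Points lie on both sides of 0, 5 are called lower and 1 is called higher.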

How the data were processed

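RNA-seq of sorted lung EC from 3 infant and 3 young adult C57BL/6N mouse samples was analysed, with group and replicate taken from the title of each sample. The authors amplified poly(A) RNA by a SMARTer Ultra Low kit that does not mark strand, aligned paired reads to mm10 with STAR, counted on RefSeq and tested counts with DESeq2. The deposited values were RPKM per RefSeq transcript, rounded to 1 decimal (17241 rows, 206 of them under 1 RPKM in all libraries). Tool versions, and how RPKM was computed, were not given in the sources used here. Whole reads could not be recovered from the rounded RPKM, so depth is unknown and no counting error is attached to values. An abundant transcript lowers all others of its library. At 8 housekeeping genes, 0 values were at 0. Only the RPKM columns of the 6 libraries were read as values.

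Symbols turned into dates (24 rows) were restored from the RefSeq accession, and 1 row per symbol was kept (12623 genes). limma 3.58.1 in R 4.3.3 was run on log2(RPKM + 1) with an intensity trend and age group as the only term, over the 12458 genes with at least 1 RPKM in at least 1 library, with Benjamini-Hochberg adjustment. Called means an adjusted p under 0.05 and a log2 fold change over 0.81, the threshold of the study. With the pseudocount of 1 fold changes of low genes are understated. Ratios are of mean RPKM without pseudocount, and no fold is given where a group was listed at 0. On simulated data of 12458 genes with 200 changed, 72% were recovered at a log2 change of 1 and 85.5% at 1.5, with 0 and 4 unchanged genes called. The simulated noise was independent between genes and had the same spread in both groups. A shift of many genes in a single library, as in infant replicate 2, was not simulated, so these rates may not hold for the data. Replicates with the same number were checked for shared deviations (correlations 0.028, -0.11 and -0.021) and were not treated as pairs. Gene positions and promoters were from RefSeq GRCm38.p6, in which all 39 members matched and 30 had a promoter entry, and exon overlaps were from GENCODE vM21.

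Members, channel families, the partner list and marker lists were chosen with earlier results of these data known. Named with values were the called members with the largest changes at a mean of at least 1 RPKM, the 10 members with the highest mean, members of a list of 30 channels of vessel and lung (16 had a row, the others were not analysed here) and called partner genes. Members and partner genes outside this rule were named after their values were seen, to describe as many members as possible. A few members and partner genes are counted but not reported here by name. Alternatives were pseudocounts of 0.1 and 5, other filters, scalings, thresholds and variance settings, sums and means over transcript rows, a replicate block and leaving out each library.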

Additional observations from a re-analysis of the deposited data

How the results depend on the processing

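Of 14 members called lower, 3 (Scn7a, Scn3b and Kcnk3) were called at a pseudocount of 5 and 8 under quantile normalization, and between 7 and 14 when 1 library was left out. The 1 member called higher fell to 0 at a pseudocount of 5, which lowers fold changes of low genes by construction. Of the partner list, 6 genes were called, with 11 at a pseudocount of 0.1, 2 at a pseudocount of 5, 10 with array weights, 17 without a fold threshold, 3 at a 2-fold threshold, and 2 to 10 without 1 library. The fewest, 2, were called without infant replicate 1 or 3, 3 without young adult replicate 1, and the most without infant replicate 2. Calls over all genes moved with these settings too. In the main fit 415 were higher and 1009 lower, with 532 and 1425 at a pseudocount of 0.1 and 240 and 338 at 5. There were 512 and 1264 with array weights, 1154 and 2022 without a fold threshold and 282 and 754 at a 2-fold threshold. Leaving out 1 library gave 312 to 566 higher and 514 to 1308 lower. The median of the members (-0.36) was -0.60 and -0.14 at pseudocounts of 0.1 and 5, -0.20 with a filter on a mean of 1 RPKM, -0.026 under quantile normalization, -0.33 under median-of-ratios scaling, -0.43 without globin genes, -0.43 with summed transcript rows, and -0.44 to -0.32 without 1 library.

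No called value changed sign under any of these settings. Uncalled log2 fold changes that did were, under quantile normalization, those of Cacnb2 (0.003), Kcne2 (0.10), Kcne3 (0.10), Kcnh1 (0.26), Kcnq1ot1 (0.32), Kcnrg (0.048) and Trpv2 (0.12). Under median-of-ratios scaling they were Clcn7 (0.041) and Kcnh1 (0.039), under upper quartile scaling Kcnh1 (0.007), without globin genes Clcn3 (-0.038) and Trpm4 (-0.057), and with array weights Clcn7 (0.023). Leaving out 1 library gave ranges across 0 for Kcnh1 (-0.075 to 0.12), Clcn7 (-0.079 to 0.043), Trpm4 (-0.17 to 0.20), Kcnj2 (-0.061 to 0.19) and Trpv2 (-0.21 to 0.018). The causes were not tested. Replicates share only a number: with a replicate block 13 members were called lower, 1 higher and 6 partner genes, with a median of -0.36, and 1 call, that of Kcne4, was lost (adjusted p 0.0628). Depth limits members under about 1 RPKM most, but cannot be given since no read numbers were used here.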
